A study of Mus musculus with 8 samples.

Results

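The Hox genes encode homeodomain transcription factors that give cells their position along the body axis, and they lie in the 4 clusters Hoxa, Hoxb, Hoxc and Hoxd, where the position number follows the order of the genes along the chromosome. The members were taken by name: each probe whose gene name in the scanner files was Hox, a cluster letter and a number. That gave 38 genes with 50 probes, out of 27654 genes and unnamed probes with 41174 probes on the array, with 11 genes in Hoxa, 10 in Hoxb, 8 in Hoxc and 9 in Hoxd. Hoxc11, the remaining member of the 39 mouse genes so named in RefSeq, was not analysed here. Amplified RNA was measured on 8 one-colour Agilent arrays; it came from haematopoietic stem cells (HSC) of donor origin that had been sorted out of transplanted mice by flow cytometry. The 4 groups had 2 arrays each: E47 knockout (KO) cells from secondary recipients, wild-type (WT) cells from secondary recipients, KO cells from primary recipients and WT cells from primary recipients. E47 is a transcription factor made from the gene Tcf3 by splicing, and a secondary recipient is a mouse that received cells taken from a primary recipient. The labels give neither the strain or age of the mice nor whether the paired arrays hold separate cell samples, so a p-value here weighs a difference against the spread of the arrays alone, and that spread may be technical.

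In blood, Hox genes are known for the self-renewal of stem and progenitor cells. Hoxa9 and Hoxb4 expand such cells when they are overexpressed, Hoxb5 marks long-term HSC in the mouse, and in the embryo genes of lower position number are switched on earlier than those of higher number. Hox proteins bind DNA together with cofactors of the TALE class, the Pbx and Meis proteins, and the histone methyltransferase encoded by Kmt2a keeps Hox genes active. E47 binds the E box, a short motif written CANNTG, and favours the forms CAGCTG and CAGGTG.

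Promoter sequences of 22 of the Hox genes (24 promoters, 250 bases before to 50 after the start) were given by RefSeq in build GRCm38.p6, and both forms of the E box named above were searched on both strands. CAGCTG stood in 4 of 24 Hox promoters (16.7%), against 16.3% of all 32851 promoters of the same length. CAGGTG stood in 0 of 24, against 20.2% of all promoters, and the general form CANNTG, which includes both, in 17 of 24 (70.8%) against 72.3%. The promoters with CAGCTG were all in the Hoxa cluster, and their 30 bases around the motif, in capitals, are shown because they are the Hox promoters that hold a form favoured by the factor removed here.
Hoxa3, chr6:52213066-52213095, minus strand, motif from 16 bases before the start: ctgccgaagcgaCAGCTGtcagagaggcag
Hoxa5, chr6:52204791-52204820, minus strand, motif from 221 bases before the start: gcgtgcgatcggCAGCTGacggcctcacaa
Hoxa6, chr6:52208739-52208768, minus strand, motif from 84 bases before the start: ccgccgctgcgtCAGCTGgtgcgatttgct
Hoxa11, chr6:52245761-52245790, minus strand, motif after the start: cgcttcaaagaggCAGCTGcagtggagaat
A match of letters is a description of the sequence and shows no binding.

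The signal of each array is the authors' processed intensity, and a level in the text is log2 of it minus the 75th percentile of the same array, so a level of 0 is the signal that 75% of spots did not exceed. Levels compare one probe between arrays and not one probe with another. A probe was "well above background" where the scanner software marked it so. That mark was met by 71.8% to 90.6% of all probes on 6 arrays but by only 35.1% and 41.3% on replicate 2 of KO and of WT cells from primary recipients, called the dim arrays here. Their 75th percentile of signal was 19.6 and 36.6, against 320.7 to 846.9 on the other 6. The mark alone does not place a transcript in HSC. On all 8 arrays it was met by 3 of 6 B lineage markers, among them Pax5, and by 4 of 6 T and NK markers, among them Cd4. Whether the mark is lenient or other cells gave these signals was not tested. The KO cells from secondary recipients shared a slide, the KO cells from primary recipients another, and all WT arrays one of their own. Genotype and slide therefore cannot be told apart, nor can recipient and slide within KO cells, while recipients can be compared within the WT slide. The level of the median tested gene itself differed between groups, by -0.73 for secondary against primary recipients and by 0.33 for KO against WT cells.

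Of 11 HSC marker genes, 10 or 11 were well above background on the 6 other arrays and 6 and 5 on the dim arrays of KO and WT cells. The summed signal of these markers was 22770 and 11360 in KO and 52950 and 37700 in WT cells from secondary recipients, against 10360 and 228.1 in KO and 8265 and 44820 in WT cells from primary recipients. The last sum, of the dim WT array, came mostly from Ly6a (32021) and Kit (11678). On that array Slamf1, Procr, Mecom, Hlf, Fgd5 and Cd34 had signals of only 2 to 5. The summed signal of 10 granulocyte and monocyte markers was 5583 to 10590 over the 4 secondary arrays and 52170 to 328500 over the 4 primary arrays, with no overlap. S100a8, a granulocyte protein gene, had signals of 81 and 2 in KO and 2 and 3 in WT cells from secondary recipients, against 11107 and 62443 in KO and 10769 and 70779 in WT cells from primary recipients. The signals of Elane, Lcn2, Ltf, Csf1r and Cd14, also in this list, overlapped between recipients. For Csf1r they were 360 and 77 in KO and 132 and 560 in WT cells from secondary recipients. In primary recipients they were 124 and 27 in KO and 262 and 12 in WT cells. For secondary against primary recipients 10 of the 10 markers lay under the median gene over both genotypes, and 8 within WT cells. The part of these other cells in any difference of a Hox gene between recipients was not tested, and in such bulk samples fewer cells of a type and less RNA per cell cannot be told apart.

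Nearly all Hox genes gave signal on the arrays that were not dim. Of 38 genes, 36 and 33 were well above background by at least 1 probe in KO and 34 and 33 in WT cells from secondary recipients, and 33 and 20 in KO and 34 and 24 in WT cells from primary recipients, where the lower counts are those of the dim arrays. In total 19 genes (50%) met the mark on all 8 arrays, against 37.7% of all genes and unnamed probes, and 31 (81.6%) met it on all 4 secondary arrays, against 72.3%. On all 4 primary arrays 19 (50%) did, against 37.8%. By cluster, 7 of 11 Hoxa genes, 3 of 10 Hoxb, 5 of 8 Hoxc and 4 of 9 Hoxd genes met it on all 8 arrays, and by position number 5 of 12 genes at 1 to 4, 5 of 11 at 5 to 8 and 9 of 15 at 9 to 13. Hoxd8 met it on no array, Hoxc8, Hoxd1 and Hoxd11 on 2 arrays each and Hoxb1 on 3, and the other 33 genes on at least 4. On all 4 secondary arrays it was met by 10 of 12 genes at 1 to 4, 9 of 11 at 5 to 8 and 12 of 15 at 9 to 13, the posterior genes, which pattern limbs, tail and urogenital tract. A difference between positions was not tested.

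**Figure D1:**
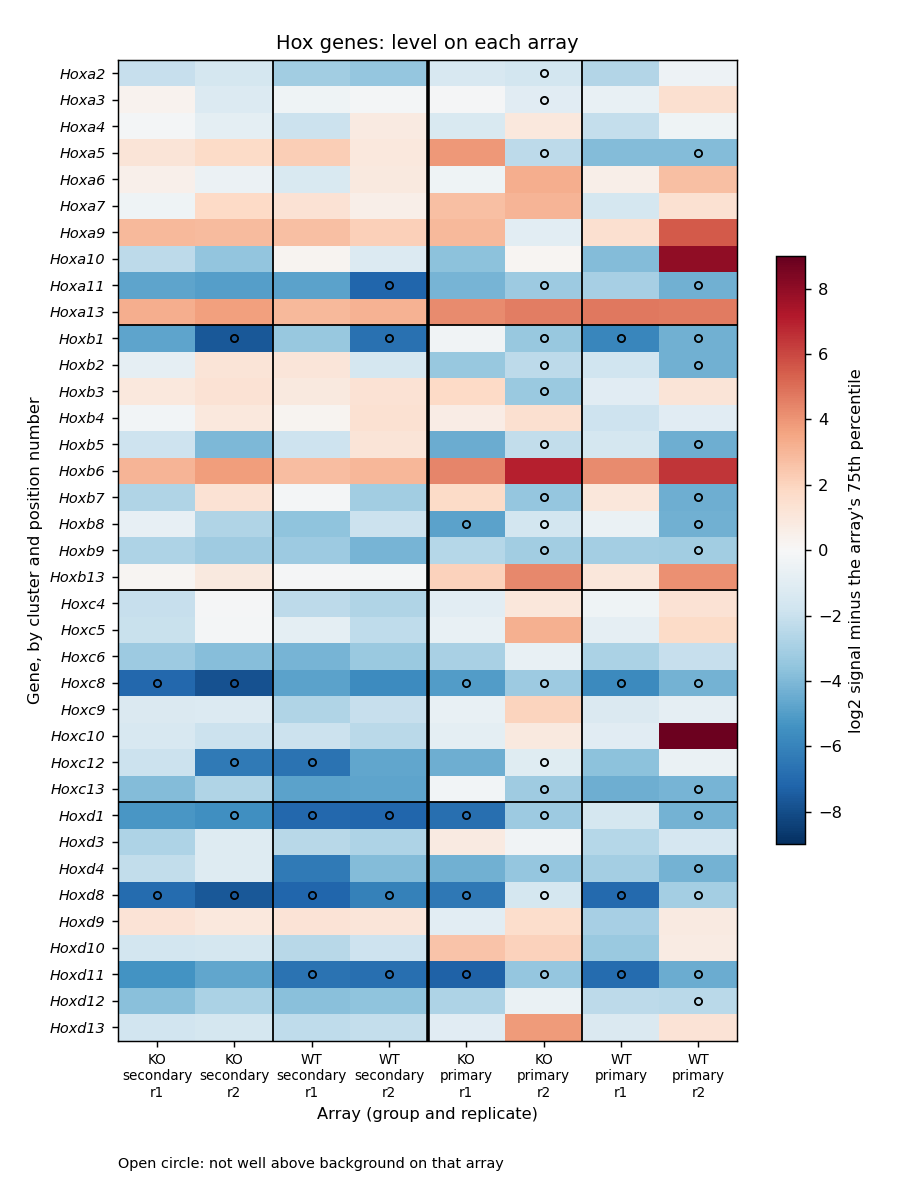
Level of 37 Hox genes (rows, by cluster and position number, 1 probe a gene) on the 8 arrays (columns, by group and replicate), as log2 signal minus the 75th percentile of the array, and an open circle where the probe was not well above background. The circles crowd on replicate 2 of both primary groups, where 20 (KO) and 24 (WT) of 38 genes met the mark by at least 1 probe, and rows are to be read along the arrays, not against each other.

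In the Hoxa cluster, Hoxa9 is the member best known from HSC and from leukaemia. Its probe shares part of its homeobox letters with the brighter probe of Hoxb3, so signal on either may include transcripts of the other gene. The level of Hoxa9 was 2.88 and 2.83 in KO and 2.69 and 2.12 in WT cells from secondary recipients, against 2.93 and -0.97 in KO and 1.45 and 5.54 in WT cells from primary recipients. Its secondary arrays lay within 1 unit of each other, while the dim primary arrays held both its lowest and its highest level. Hoxa5, needed for the lung and the neck and upper chest skeleton, stood at 1.17 and 1.69 in KO and 2.20 and 0.98 in WT cells from secondary recipients, and at 3.92 and -2.32 in KO and -3.90 and -3.88 in WT cells from primary recipients. In signal, Hoxa5 was 5425 and 3.92 in KO and 21.6 and 2.48 in WT cells from primary recipients, and on both dim arrays it was not well above background. Hoxa5 was thus high on replicate 1 of the KO primary group and low on the other 3 primary arrays. Hoxa7, a thoracic gene, stood at -0.38 and 1.80 in KO and 1.31 and 0.54 in WT cells from secondary recipients, and at 2.72 and 3.02 in KO and -1.58 and 1.38 in WT cells from primary recipients. Both KO arrays from primary recipients lay above all other arrays for Hoxa7. Hoxa10, which acts in the uterus and in blood progenitors, stood at -2.38 and -3.58 in KO and 0.28 and -1.25 in WT cells from secondary recipients, and at -3.69 and 0.15 in KO and -3.89 and 7.96 in WT cells from primary recipients. Its signal of 9117 on the dim WT primary array stood against 21.6 on the other array of that group, a gap of 11.86 on the log2 scale and the widest between replicates of any tested Hox gene.

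Among the other Hoxa genes, Hoxa11 and Hoxa13 separated the recipients in level, and Hoxa2 and Hoxa13 the genotypes in secondary recipients. Both KO arrays were the higher ones there for 14 of 35 tested Hox genes and 7801 of 22942 tested genes. Hoxa2, which gives the second pharyngeal arch its identity, stood at -2.07 and -1.55 in KO and -3.15 and -3.48 in WT cells from secondary recipients, and at -1.45 and -1.64 in KO and -2.64 and -0.49 in WT cells from primary recipients. For Hoxa2 both KO arrays lay above both WT arrays in secondary recipients only, and in primary recipients the genotypes overlapped. Hoxa3, needed for thymus and parathyroid, stood at 0.35 and -1.25 in KO and -0.41 and -0.18 in WT cells from secondary recipients, and at -0.09 and -1.04 in KO and -0.65 and 1.41 in WT cells from primary recipients. Hoxa4, a gene of the neck vertebrae, stood at -0.20 and -0.89 in KO and -1.92 and 0.83 in WT cells from secondary recipients, and at -1.35 and 0.97 in KO and -2.16 and -0.37 in WT cells from primary recipients. All groups overlapped for Hoxa3 and Hoxa4. Hoxa6, a thoracic gene, stood at 0.45 and -0.54 in KO and -1.39 and 0.91 in WT cells from secondary recipients, and at -0.39 and 3.27 in KO and 0.55 and 2.69 in WT cells from primary recipients. Hoxa11, which shapes forearm, kidney and uterus, stood at -4.73 and -4.96 in KO and -4.83 and -7.16 in WT cells from secondary recipients, and at -4.17 and -3.30 in KO and -3.02 and -4.30 in WT cells from primary recipients. Hoxa13, needed for digits and the urogenital tract, stood at 3.30 and 3.69 in KO and 2.92 and 3.15 in WT cells from secondary recipients, and at 4.27 and 4.61 in KO and 4.77 and 4.71 in WT cells from primary recipients. For Hoxa11 and Hoxa13 every secondary array lay below every primary array. Hoxa11 was not above background on either dim array, with signals of 1.99 in KO and 1.86 in WT cells, so its levels there are only upper limits. Hoxa13 in KO cells lay above WT cells on both arrays from secondary recipients and below them on both from primary recipients.

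In the Hoxb cluster, Hoxb2 was the gene whose levels separated the recipients with secondary recipients above. Hoxb4, known for expanding HSC, stood at -0.28 and 0.97 in KO and 0.22 and 1.38 in WT cells from secondary recipients, and at 0.68 and 1.45 in KO and -1.89 and -1.03 in WT cells from primary recipients. The WT primary arrays were the lowest for Hoxb4, and replicate 2 of the KO primary group the highest. Hoxb2, a hindbrain gene, stood at -0.80 and 1.17 in KO and 1.1 and -1.57 in WT cells from secondary recipients, and at -3.44 and -2.35 in KO and -1.78 and -4.34 in WT cells from primary recipients. Every secondary array lay above every primary array for Hoxb2, where the nearest pair was 0.21 apart on this scale. On both dim arrays Hoxb2 was not well above background. Its signals were 382 and 971 in KO and 1815 and 246 in WT cells from secondary recipients, against 32.9 and 3.86 in KO and 93.4 and 1.80 in WT cells from primary recipients. Hoxb3, a paralogue of Hoxa3, stood at 0.96 and 1.31 in KO and 0.87 and 1.32 in WT cells from secondary recipients, and at 1.77 and -3.37 in KO and -1.02 and 1.13 in WT cells from primary recipients. Hoxb5 stood at -1.87 and -4.07 in KO and -1.87 and 1.13 in WT cells from secondary recipients, and at -4.44 and -2.22 in KO and -1.55 and -4.38 in WT cells from primary recipients. Both genes overlapped between recipients, and both were below the mark on the dim KO array.

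Among the Hoxb genes of higher number, Hoxb6 and Hoxb13 separated the recipients the other way. Hoxb6 stood at 3.02 and 3.74 in KO and 2.78 and 3.0 in WT cells from secondary recipients, and at 4.41 and 7.0 in KO and 4.28 and 6.46 in WT cells from primary recipients. Hoxb13, a gene of the prostate and tail, stood at 0.16 and 0.86 in KO and -0.12 and -0.15 in WT cells from secondary recipients, and at 2.08 and 4.36 in KO and 1.03 and 4.12 in WT cells from primary recipients. Every secondary array lay below every primary array for both. The signal of Hoxb13 was 739 and 783 in KO and 777 and 656 in WT cells from secondary recipients, and 1510 and 402 in KO and 653 and 635 in WT cells from primary recipients, so before division by the 75th percentile it overlapped between recipients. Hoxb7 stood at -2.68 and 1.29 in KO and -0.18 and -3.16 in WT cells from secondary recipients, and at 1.73 and -3.49 in KO and 1.01 and -4.39 in WT cells from primary recipients. Hoxb8, which can hold myeloid progenitors in an immature state when overexpressed, stood at -0.71 and -2.69 in KO and -3.63 and -1.92 in WT cells from secondary recipients, and at -4.83 and -1.64 in KO and -0.60 and -4.34 in WT cells from primary recipients. Hoxb8 in KO cells was well above background on both arrays from secondary and on no array from primary recipients. With each primary level raised to at least the lowest signal marked above background on its array, the means differed 2.49-fold, higher in secondary recipients. This fold ignores the spread of the arrays and is no lower limit. Hoxb9, a rib patterning gene, stood at -2.76 and -3.19 in KO and -3.27 and -4.17 in WT cells from secondary recipients, and at -2.55 and -3.11 in KO and -3.07 and -3.15 in WT cells from primary recipients. This probe of Hoxb9 was not well above background on the dim arrays.

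Hoxb1, a marker of rhombomere 4 of the hindbrain, was spotted 10 times on each array, which shows the spread between spots beside that between arrays. The lowest and highest of the 10 signals were 17.8 and 28.5 on replicate 1 and 1.61 and 5.33 on replicate 2 of KO cells from secondary recipients, and 68.5 and 96.0 on replicate 1 and 2.36 and 13.9 on replicate 2 of WT cells from secondary recipients. In primary recipients they were 281 and 314 on replicate 1 and 1.73 and 2.01 on replicate 2 of KO cells, and 1.78 and 7.23 on replicate 1 and 1.67 and 1.98 on replicate 2 of WT cells. Between the arrays of a group the spots did not overlap in KO cells or in WT cells from secondary recipients, and they overlapped in WT cells from primary recipients. Hoxb1 was well above background on 1 of 2 KO and on no WT array from primary recipients, which gives no fold, and it was not among the genes tested.

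In the Hoxc cluster Hoxc4, Hoxc5, Hoxc6, Hoxc9, Hoxc10 and Hoxc12 each had their highest level on a dim primary array. Hoxc4 stood at -2.09 and -0.13 in KO and -2.32 and -2.73 in WT cells from secondary recipients, and at -0.93 and 1.03 in KO and -0.41 and 1.30 in WT cells from primary recipients. Hoxc5 stood at -2.01 and -0.15 in KO and -0.87 and -2.31 in WT cells from secondary recipients, and at -0.64 and 3.18 in KO and -0.78 and 1.70 in WT cells from primary recipients. For both genes the WT secondary arrays lay below the WT primary arrays, as for 9190 of 22942 tested genes, while the KO arrays overlapped. Hoxc6, known from the mammary gland and the thoracic skeleton, stood at -3.24 and -3.83 in KO and -4.22 and -3.36 in WT cells from secondary recipients, and at -2.92 and -0.68 in KO and -2.87 and -2.06 in WT cells from primary recipients. Hoxc9, which sets motor neuron types of the thorax, stood at -1.31 and -1.26 in KO and -2.71 and -2.07 in WT cells from secondary recipients, and at -0.68 and 1.99 in KO and -1.29 and -0.83 in WT cells from primary recipients. Every secondary array lay below every primary array for Hoxc6, and the same held within each genotype for Hoxc9. Within KO cells 6526 of 22942 tested genes had this order and within WT cells 9190. Hoxc10, a gene of the lumbar region, stood at -1.42 and -1.95 in KO and -1.97 and -2.45 in WT cells from secondary recipients, and at -0.89 and 0.86 in KO and -0.99 and 8.80 in WT cells from primary recipients. The signal of 16270 behind the last value stood against 161.9 on the other WT primary array. Hoxc12 stood at -1.91 and -6.33 in KO and -6.66 and -4.67 in WT cells from secondary recipients, and at -4.40 and -1.12 in KO and -3.72 and -0.57 in WT cells from primary recipients. Hoxc13, needed for hair and nails, stood at -3.91 and -2.71 in KO and -4.81 and -4.74 in WT cells from secondary recipients, and at -0.22 and -3.23 in KO and -4.41 and -4.20 in WT cells from primary recipients. Each KO array lay above each WT array for Hoxc13, although 2 of these, the dim ones, were not above background. Hoxc8, a gene of thoracic vertebrae and forelimb motor neurons, was above background on the WT secondary arrays alone, with signals of 29.7 and 14.6, against 4.94 and 1.92 in KO cells from secondary recipients and 11.2 and 2.03 in KO and 6.12 and 1.88 in WT cells from primary recipients.

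In the Hoxd cluster, Hoxd9 had even levels in secondary recipients and Hoxd10 had a high level in KO cells from primary recipients. Hoxd9 stood at 1.23 and 0.94 in KO and 1.21 and 1.11 in WT cells from secondary recipients, and at -0.93 and 1.59 in KO and -2.99 and 0.81 in WT cells from primary recipients. In signal, Hoxd9 had 1562 and 824 in KO and 1959 and 1574 in WT cells from secondary recipients, against 188 and 59.2 in KO and 40.4 and 63.9 in WT cells from primary recipients. The signals did not overlap between recipients, but the levels did through the dim arrays. Hoxd10, a lumbar and hindlimb gene, stood at -1.66 and -1.61 in KO and -2.48 and -1.90 in WT cells from secondary recipients, and at 2.57 and 2.10 in KO and -3.33 and 0.76 in WT cells from primary recipients. Both KO arrays from primary recipients were thus the highest in level. The signals of Hoxd10 in primary recipients were 2115 and 84.4 in KO and 32.0 and 62.0 in WT cells. The dim KO array was below every secondary array in signal, where these had 210 and 141 in KO and 152 and 196 in WT cells. Hoxd3, which patterns the first neck vertebrae, stood at -2.75 and -1.16 in KO and -2.50 and -2.77 in WT cells from secondary recipients, and at 0.79 and -0.31 in KO and -2.53 and -1.54 in WT cells from primary recipients. Hoxd4, a gene of the hindbrain and spinal cord, stood at -2.22 and -1.14 in KO and -6.37 and -3.92 in WT cells from secondary recipients, and at -4.36 and -3.46 in KO and -3.03 and -4.24 in WT cells from primary recipients. Both KO arrays exceeded both WT arrays for Hoxd3 in primary recipients, as for 3870 of 22942 tested genes. The same held for Hoxd4 in secondary recipients, as for 7801 of them.

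Among the posterior Hoxd genes, Hoxd12 and Hoxd13 separated the recipients in level. Hoxd12, a limb gene, stood at -3.73 and -2.85 in KO and -3.76 and -3.64 in WT cells from secondary recipients, and at -2.77 and -0.62 in KO and -2.37 and -2.45 in WT cells from primary recipients. Hoxd13, needed for digits, stood at -1.71 and -1.57 in KO and -2.31 and -2.13 in WT cells from secondary recipients, and at -1.05 and 3.85 in KO and -1.29 and 1.24 in WT cells from primary recipients. Both lay lower on every secondary than on every primary array, while the signal of Hoxd13 overlapped, at 203 and 145 in KO and 171 and 167 in WT cells from secondary recipients and 172 and 283 in KO and 131 and 86.2 in WT cells from primary recipients. Hoxd11, a partner of Hoxa11 in the forearm, was above background on both KO and no WT array from secondary recipients. Its signals there were 15.8 and 16.7 against 8.33 and 6.55, and it entered the test through that KO group alone. With each WT level raised to the lowest signal marked above background on its array, the means differed 2.24-fold, higher in KO. This fold ignores the spread of the arrays and is no lower limit. Hoxd1 was above background on 1 KO secondary and 1 WT primary array, with signals of 17.6 and 9.28 in KO and 6.25 and 5.08 in WT cells from secondary recipients, and 3.2 and 2.02 in KO and 107.5 and 1.93 in WT cells from primary recipients. Hoxd8 stayed between 2.16 and 10.9 in signal on all arrays. Hoxb1, Hoxd1 and Hoxd8 met the mark on both arrays of no group and were not tested, which left 35 Hox genes among 22942 genes and unnamed probes tested.

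**Figure D2:**
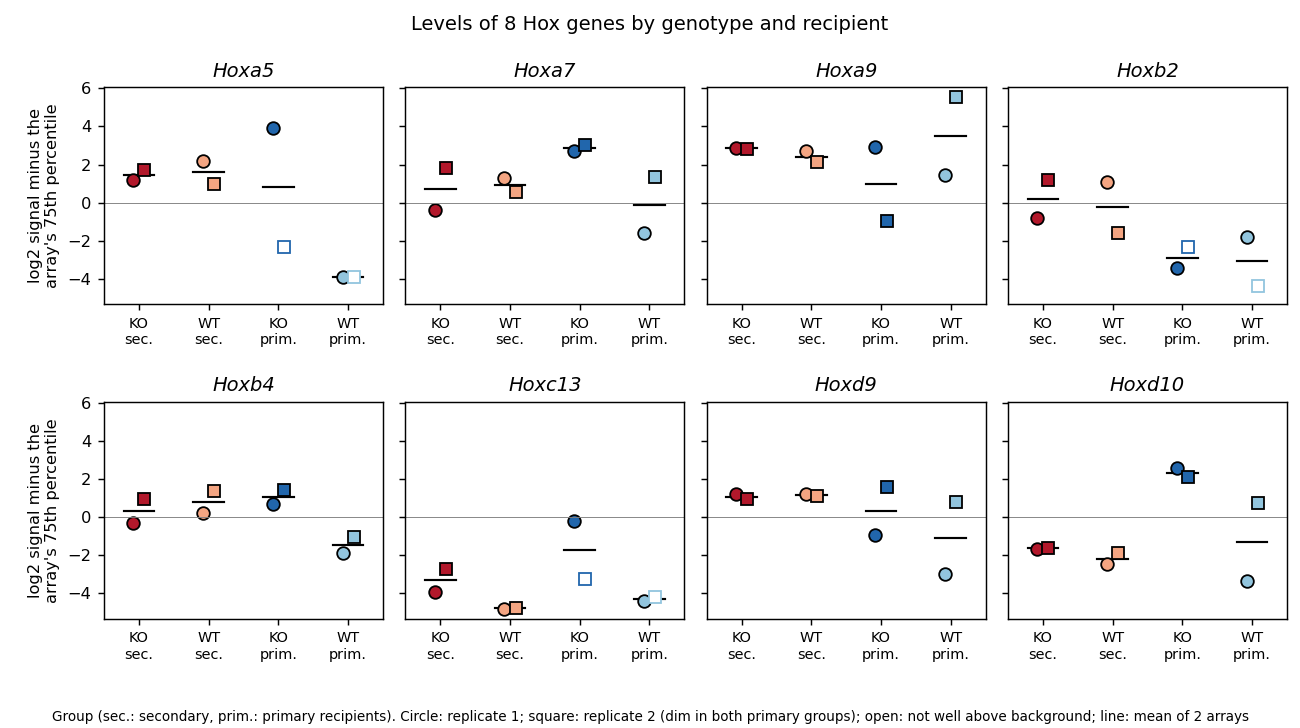
Level of 8 Hox genes (log2 signal minus the 75th percentile of the array) on each array, by genotype and recipient, with a line at the mean of the 2 arrays and open marks where the probe was not well above background. Squares of the primary groups are the dim arrays: Hoxa5 differed by 6.25 between the 2 arrays of KO cells from primary recipients, while Hoxd9 lay between 0.94 and 1.23 on the secondary arrays.

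The arrays of a group lay closer on Hox genes in secondary than in primary recipients. The median absolute log2 gap between replicates over the 35 tested Hox genes was 0.74 in KO and 0.77 in WT cells from secondary recipients, against 2.28 in KO and 2.15 in WT cells from primary recipients. Over all tested genes it was 1.09 in KO and 0.82 in WT cells from secondary recipients and 1.71 in KO and 1.56 in WT cells from primary recipients. A gap over 2 was found for 5 Hox genes in KO and 8 in WT cells from secondary recipients, and for 21 in KO and 20 in WT cells from primary recipients. As shares these are 14.3% in KO and 22.9% in WT cells from secondary recipients and 60% in KO and 57.1% in WT cells from primary recipients, where over all tested genes the share was 28.8% in KO and 22.2% in WT cells from secondary recipients and 43.6% in KO and 40.4% in WT cells from primary recipients. Hoxb5 had the widest gap in WT cells from secondary recipients, at 3.0, and Hoxc12 in KO cells from secondary recipients, at 4.42.

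KO and WT cells were compared in secondary recipients to ask which Hox transcripts differ without E47 after serial transplantation. No Hox gene passed the test: 0 of 35 had an adjusted p under 0.05 in limma, as had 0% of all 22942 genes, and 1 of 35 had an unadjusted p under 0.05, where 5.37% of all genes did. Each log2 change has the change of the median gene in that comparison (0.45 here) subtracted, and p-values refer to the change before this subtraction. Hoxd4 had a log2 change of 3.01 in KO (SE 1.2, adjusted p = 0.880 in limma). Both KO arrays lay above both WT arrays for Hoxd4, as for 14 of 35 Hox genes and 7801 of 22942 tested genes. Hoxb5 had a log2 change of -3.05 (SE 1.61, adjusted p = 0.985), and its groups overlapped. Hoxc8, above background on both WT arrays and no KO array, entered the test through WT cells from secondary recipients alone. Its mean levels were -7.44 in KO and -5.24 in WT cells (adjusted p = 0.980 in limma). With each KO level raised to the lowest signal marked above background on its array, the means differed 1.67-fold. This fold ignores the spread of the arrays. Of the 35 genes 20 lay above and 15 under the median gene, with a Hox median of 0.05. Of the other genes known from HSC, Hoxa9 lay at -0.01 (SE 1.72) and Hoxb4 at -0.91 (SE 1.04).

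In primary recipients the same comparison asks about E47 after a first transplantation. Again 0 of 35 Hox genes had an adjusted p under 0.05 (0% of all genes), and 3 of 35 had an unadjusted p under 0.05, where 3.98% of all genes did. These were Hoxd10, with a log2 change of 3.33 (SE 1.40), Hoxa5, with 4.40 (SE 1.88), and Hoxb4, with 2.24 (SE 1.04), each with adjusted p = 0.995 in limma. Both KO arrays lay above both WT arrays for each, as for 7 of 35 Hox genes and 3870 of 22942 tested genes. For Hoxa5 this order is not settled, because its dim KO level of -2.32 rests on a signal not above background. Hoxa7 at 2.69 and Hoxc13 at 2.29 also lay high, while Hoxc10 at -4.21, Hoxa10 at -4.09 and Hoxa9 at -2.79 lay low. The low values depended on the dim arrays: without both of them, which leaves 1 array a group whose spread is taken to be that of the other groups, Hoxc10 was at -0.05, Hoxa10 at 0.06 and Hoxa9 at 1.34. The high ones remained high, with Hoxa5 at 7.68, Hoxd10 at 5.75, Hoxa7 at 4.16, Hoxc13 at 4.04 and Hoxb4 at 2.42, of which Hoxa5 and Hoxd10 had the lowest adjusted p, 0.428. In all, 19 Hox genes lay above and 16 under the median gene, with a Hox median of 0.05, and 23 of 35 kept their sign without the dim arrays. Without replicate 1 of WT cells alone, which leaves the dim array to stand for WT, 1 Hox gene was called, Hoxc10 with a log2 change of -8.95 (adjusted p = 0.0305).

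**Figure D3:**
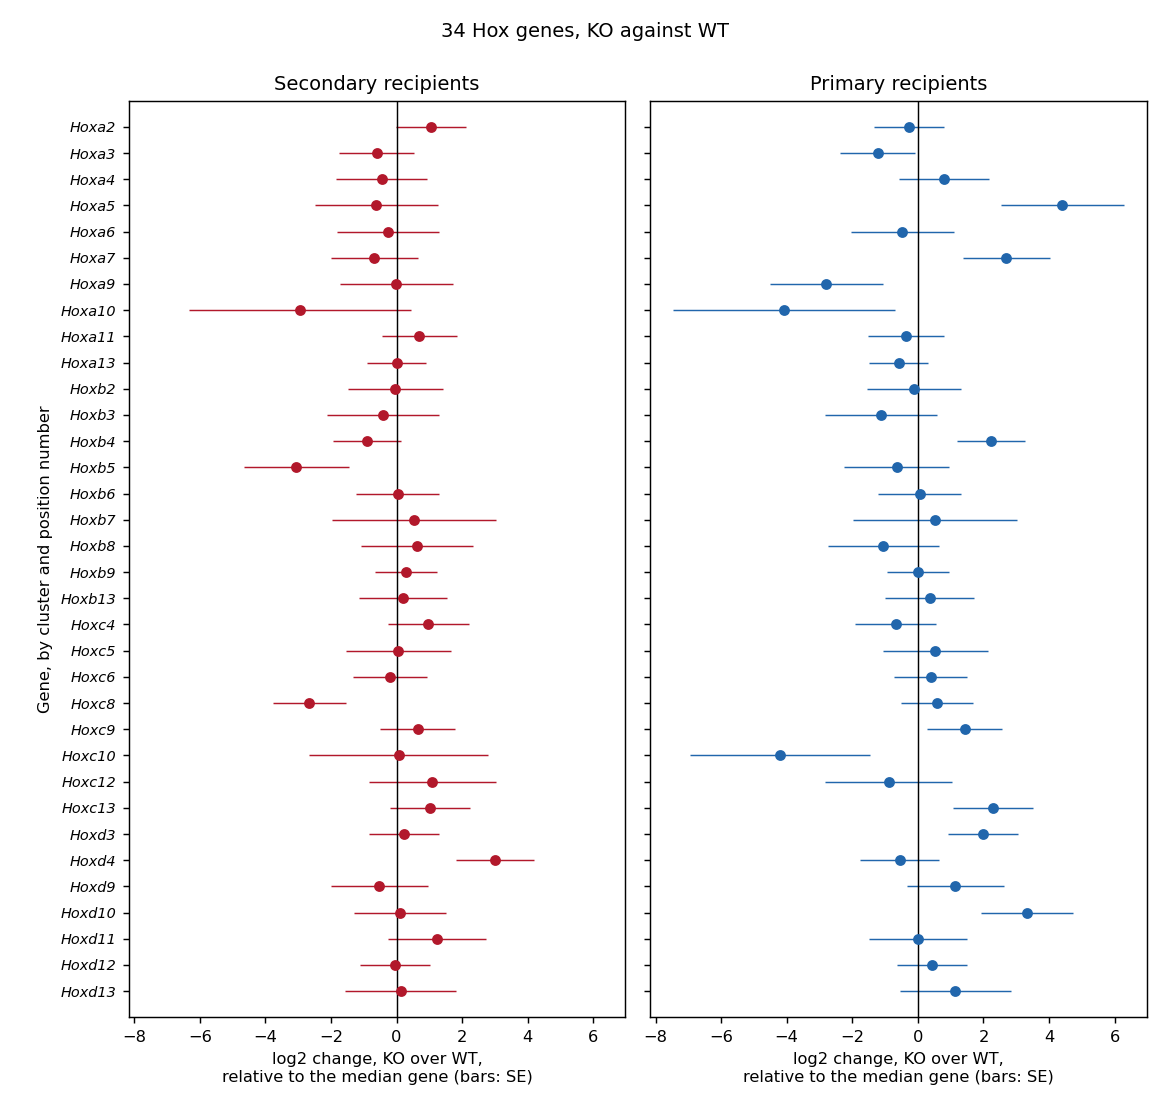
Log2 change of KO over WT cells for 34 tested Hox genes, relative to the median gene, in secondary (left) and primary recipients (right), with bars of 1 SE from limma. Hoxd4 at 3.01 in secondary and Hoxa5 at 4.40 in primary recipients lie farthest to the right, and no gene had an adjusted p under 0.05.

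Over both recipients, 0 of 35 Hox genes were called (0% of all genes), and 1 of 35 had an unadjusted p under 0.05, where 4.68% of all genes did. Hoxc13 had a log2 change of 1.69 (SE 0.83), Hoxd10 of 1.75 (SE 1.07) and Hoxd3 of 1.15 (SE 0.75), each with adjusted p = 0.851. Hoxc13 was the 1 Hox gene with all 4 KO arrays above all 4 WT arrays, as were 1.31% of all genes, and 0 Hox genes had all KO arrays lower, as had 0.488%. When each array was centred on its median gene, Hoxc13 overlapped between genotypes, and 0.976% of all genes had all KO arrays higher. The difference of the KO against WT change between secondary and primary recipients was under the threshold for 0 of 35 genes (0% of all genes), and 0 of 35 had an unadjusted p under 0.05, where 3.74% of all genes did. The lowest p-values belonged to Hoxd4 (3.47, SE 1.69), Hoxb4 (-3.24, SE 1.47) and Hoxc8 (-3.33, SE 1.56, mostly from signals not above background), none with an adjusted p under 0.05 in limma. The interval of these differences is wide, and a p over the threshold does not show that KO and WT cells had the same Hox levels.

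Secondary and primary recipients were compared over both genotypes. No Hox gene passed the test (0 of 35 called, 0% of all genes), while 6 of 35 had an unadjusted p under 0.05, of which 1 was higher and 5 lower in secondary recipients, where 19.2% of all genes did. Hoxb2 had the lowest p, with a log2 change of 3.68 (SE 0.95, adjusted p = 0.248 in limma), followed by Hoxb13 with -1.98 (SE 0.89) and Hoxb6 with -1.67 (SE 0.84), both with adjusted p = 0.249. Hoxb2 was the 1 Hox gene with all 4 secondary arrays above all 4 primary arrays, where 3.16% of all genes were, and 8 Hox genes (Hoxa11, Hoxa13, Hoxb6, Hoxb13, Hoxc6, Hoxc10, Hoxd12 and Hoxd13) had all secondary arrays lower, where 12.7% were. Hoxb6 rests on a probe described further on. The levels of Hoxb2 and Hoxa11 on both dim arrays, and of Hoxd12 on the dim WT array, rest on signals not above background. With each array centred on its median gene, Hoxb13 and Hoxd12 overlapped, which left 6 lower, where 10.9% of all genes were, and Hoxb2 higher, where 3.26% were.

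Among the genes known from HSC, Hoxa9, Hoxb4 and Hoxb5 lay above the median gene in this comparison, none of them called. Hoxa10, which acts in blood progenitors, lay under it at -1.14 (SE 2.26). The log2 changes were 3.78 for Hoxa5, 2.23 for Hoxd9, 2.21 for Hoxb3 and Hoxb5, 1.5 for Hoxb4 and 1.13 for Hoxa9. The SE was 1.13 for Hoxb5, 0.85 for Hoxb4 and 1.25 for Hoxa9. Within the genotypes Hoxa9 lay at 2.40 in KO and -0.09 in WT cells. On the low side were Hoxc10 at -3.16, Hoxd13 at -1.89, Hoxc12 at -1.71, Hoxd10 at -1.71 and Hoxc5 at -1.47. In all, 16 Hox genes lay above and 19 under the median gene, with a median of -0.30. Without both dim arrays Hoxd9 stood at 3.58 (SE 0.71, adjusted p = 0.190), Hoxb2 at 3.09 (SE 1.12, adjusted p = 0.342), Hoxa5 at 1.99 and Hoxb4 at 1.67, whereas Hoxc10 was at -0.51, Hoxd13 at -0.26 and Hoxc5 at -0.12. The direction was the same for 31 of 35 genes, and Hoxa10 turned to 2.56 against -1.14 on all arrays. Beside all these values stands the granulocyte signal of the primary arrays given above, whose part in them was not tested.

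**Figure D4:**
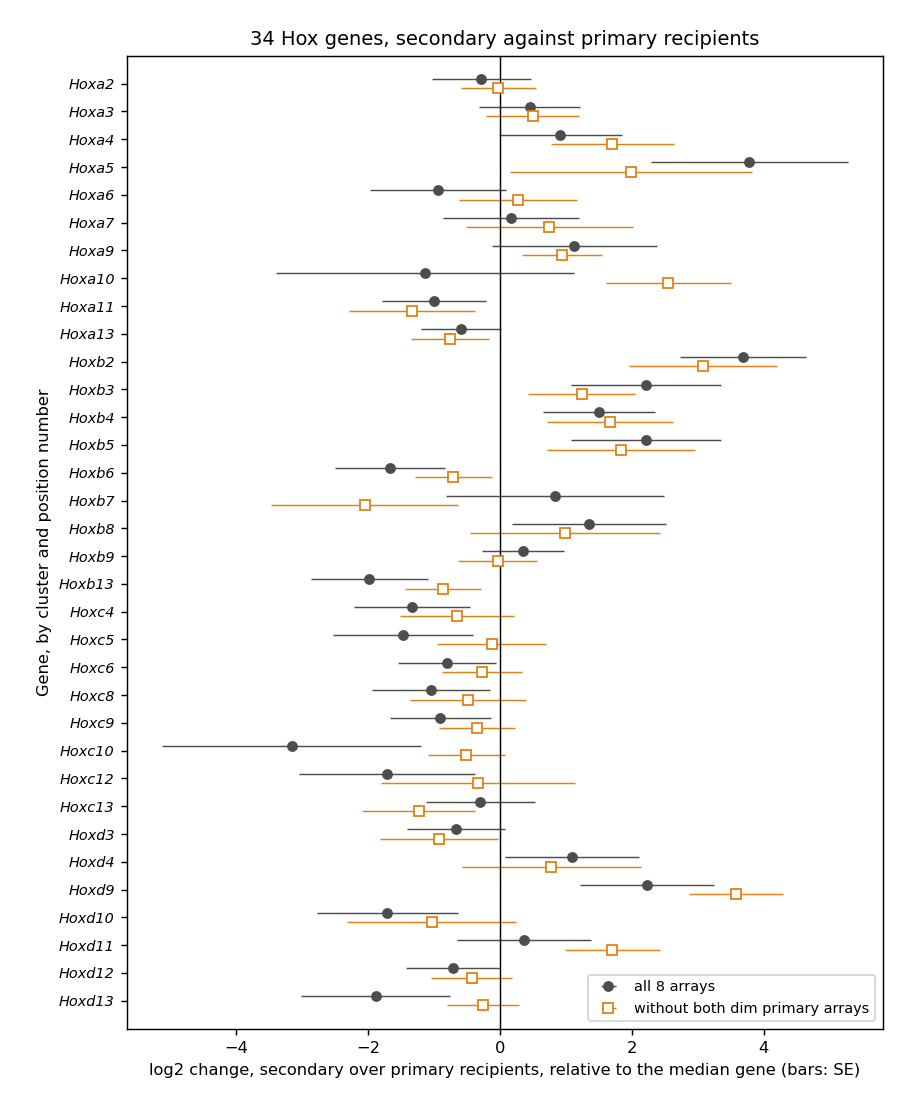
Log2 change of secondary over primary recipients for 34 tested Hox genes, relative to the median gene, with bars of 1 SE from limma, from all 8 arrays (filled circles) and without the 2 dim primary arrays (open squares). Hoxb2 at 3.68 and 3.09 and Hoxd9 at 2.23 and 3.58 lie to the right in both, and Hoxc10 comes close to 0 without the dim arrays.

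Within each genotype, again no Hox gene passed the test. In WT cells, where both recipients shared a slide, 0 of 35 Hox genes were called (0% of all genes) and 2 of 35 had an unadjusted p under 0.05, where 12.0% of all genes did. Hoxa5 had a log2 change of 6.47 (SE 1.88, adjusted p = 0.411), with signals of 3895 and 1437 in secondary recipients, against 21.6 and 2.48 in primary recipients. Hoxc4 had a log2 change of -1.98 (SE 1.23) and Hoxc10 of -5.12 (SE 2.73), both with adjusted p = 0.413. In KO cells the recipients were on different slides, so recipient and slide cannot be told apart. There 0 of 35 were called (0% of all genes) and 2 of 35 had an unadjusted p under 0.05, where 6.04% of all genes did. These were Hoxc8, which was above background in neither group and gets no fold, and Hoxd10, with a log2 change of -3.45 (SE 1.40, adjusted p = 0.716). Hoxb2 was next, with 3.61 (SE 1.44, adjusted p = 0.716), beside 3.82 in WT cells. For Hoxb4 the change was -0.19 in KO and 3.25 in WT cells (SE 1.04). The Hox median was -0.59 in KO and -0.09 in WT cells.

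For 12 Hox genes a second probe allowed a check, and several pairs ran apart. Over 11 pairs with values on all arrays, both probes had the same sign in 7 for secondary against primary recipients, in 6 for KO against WT in secondary and in 7 in primary recipients. Over both genotypes, both probes of Hoxb3 and Hoxb2 lay higher in secondary recipients, at 2.21 and 2.42 for Hoxb3 and 3.68 and 1.75 for Hoxb2. The second Hoxb2 probe gave 3.53 in KO but only 0.03 in WT cells. It was placed on the minus strand and the brighter one on the plus strand, and whether it reads the Hoxb2 transcript was not tested. For Hoxd9 the brighter probe gave 2.23 over both genotypes and the other -1.47, for Hoxd3 they gave -0.67 and 1.41, and for Hoxb6 -1.67 and 2.16. The second probe of Hoxb9 was marked as an outlier on 3 arrays and was not used.

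Probe letters are shown for 3 genes, chosen after their values were seen, whose pairs are described next, as the first 30 of 60 bases from the 5′ end, with CG pairs in capitals. The first of each pair is the brighter probe, which stood for the gene.
Hoxa13, chr6:52188440-52188499, minus strand: gaccactagttaatggattaaaaggtggag
Hoxa13, chr6:52188599-52188658, minus strand: gcagttgaaagaactCGaaCGggaataCGc
Hoxb6, chr11:96115057-96115116, plus strand: ggtgctatttgacaattcctgcctctgcca
Hoxb6, chr11:96117339-96117398, plus strand: tCGagtctcatttCGtccatgtccccCGtg
Hoxc10, chr15:102795624-102798872, plus strand, a span longer than the probe: tCGgataaCGaagctaaagaggagataaag
Hoxc10, chr15:102799460-102799519, plus strand: ggaaagaaagggggataatcaaacagagag
The probes of Hoxb6 start 2282 bases apart. Its brighter one gave signals of 5402 and 5760 in KO and 5812 and 5830 in WT cells from secondary recipients, and 7572 and 2512 in KO and 6208 and 3223 in WT cells from primary recipients, a range of 1.59 on the log2 scale. The other gave 191 and 2261 in KO and 875 and 559 in WT cells from secondary recipients, and 52.6 and 6.94 in KO and 55.4 and 92.8 in WT cells from primary recipients. The signals of this second probe did not overlap between recipients, but its levels did, at -1.80 and 2.39 in KO and 0.05 and -0.38 in WT cells from secondary recipients and -2.76 and -1.5 in KO and -2.53 and 1.34 in WT cells from primary recipients. The brighter probe of Hoxb6 thus overlapped between recipients in signal and was lower in secondary recipients only after division by the 75th percentile of the array. The brighter probe of Hoxa13 overlapped in signal as well, at 6535 and 5561 in KO and 6396 and 6488 in WT cells from secondary recipients and 6893 and 477 in KO and 8750 and 956 in WT cells from primary recipients. The other Hoxa13 probe was well above background on 4 arrays, at 282 and 69.7 in KO and 17.7 in WT cells from secondary recipients and 269 in WT cells from primary recipients. For Hoxc10, each probe was far above the other arrays on a different WT primary array, with 16270 on replicate 2 by the brighter and 6187 on replicate 1 by the other probe.

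**Figure D5:**
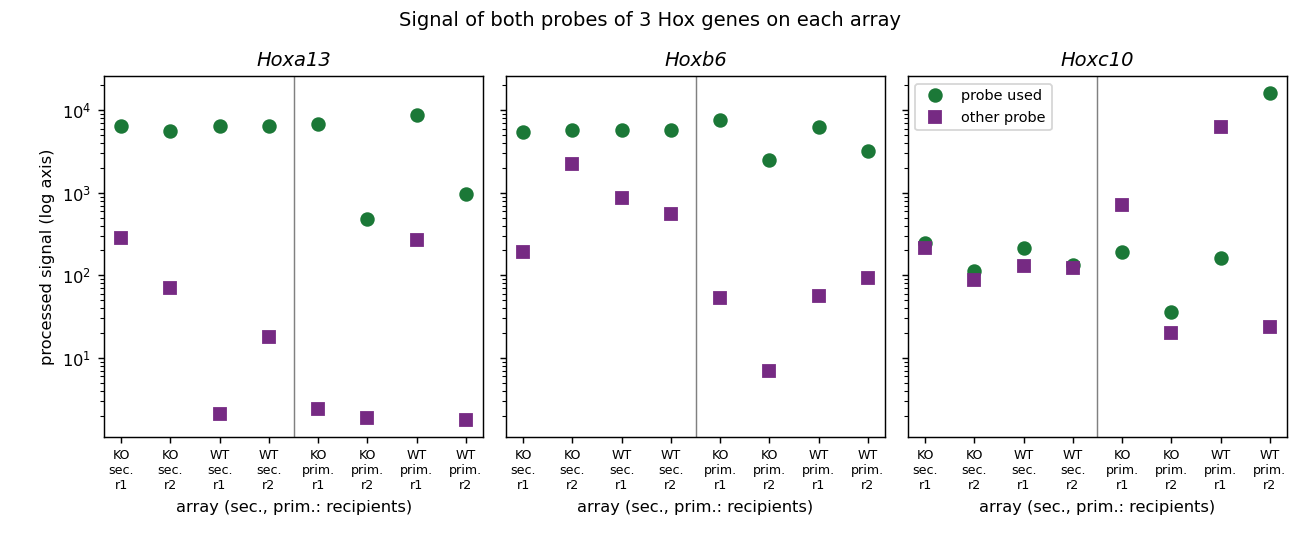
Processed signal (log axis) of both probes of Hoxa13, Hoxb6 and Hoxc10 on each array, with the probe that stood for the gene as circles and the other as squares. The circles of Hoxb6 stay between 2512 and 7572 while its squares run between 6.94 and 2261, and for Hoxc10 the high points of the probes fall on different arrays.

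The TALE cofactors were led by Meis1, which supports HSC together with Hoxa9. Meis1 had signals of 9168 and 16123 in KO and 4704 and 13785 in WT cells from secondary recipients, against 474 and 15 in KO and 28 and 13 in WT cells from primary recipients. All secondary arrays lay above all primary arrays, with a log2 change of 5.92 (SE 0.83, adjusted p = 0.0699 in limma) and of 5.99 without both dim arrays. None of the 9 cofactors tested was called in any of the 7 comparisons. For secondary against primary recipients 6 lay above and 3 under the median gene, with a list median of 0.37. Among them Pbx3 lay at 1.78, Pbx2 at 1.60, Pbx4 at 0.37 and Pknox1 at 0.23, and Meis3 at -0.87 and Pknox2 at -1.70, beside Meis2 at -3.22, which was above background on 3 arrays. Without both dim arrays Pbx2 turned to -1.12. For KO against WT over both recipients Meis1 was at 1.51 and Pknox1, a DNA-binding partner of Pbx, at -6.17, its signals being 375 and 5 in KO and 1094 and 1566 in WT cells from secondary recipients and 6 and 2 in KO and 99 and 4812 in WT cells from primary recipients (adjusted p = 0.851).

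Of 14 regulators of Hox transcription, 13 were tested and none was called in any comparison. Psip1, whose product tethers the Kmt2a protein to chromatin, was well above background on 5 of 8 arrays and had signals of 576 and 929 in KO and 942 and 389 in WT cells from secondary recipients, against 8 and 3 in KO and 32 and 2 in WT cells from primary recipients. Its log2 change for secondary against primary recipients was 4.84 by the fit, and 4.98 without both dim arrays, from primary signals that were mostly not above background. Wdr5 and Ash2l, core subunits shared by such methyltransferases, lay at 3.19 and 3.45, Mllt10 at 1.78 and Cdx1 at 0.96. Kmt2a itself lay at -1.55, the leukaemia fusion partners Mllt3 at -1.88, Aff1 at -1.37 and Mllt1 at -1.19, Dot1l, a histone methyltransferase recruited by them, at -0.90 and the core subunit Rbbp5 at -0.34. Without both dim arrays Kmt2a turned to 0.63. The list thus split into 7 above and 6 under the median gene, with a median of 0.96. Men1 and Cdx2 were above background on 3 arrays each, with signals from 2 to 1398, and Cdx4 on none, with signals from 2 to 9.

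Genes that flank the clusters were listed to see whether neighbours ran with the Hox genes, and 10 of 11 were tested with none called. For secondary against primary recipients 4 lay above and 6 under the median gene, with a median of -0.07. Beside Hoxa, Skap2 was at 1.98, Hibadh at 0.78 and Evx1 at -0.01, and beside Hoxb, Ttll6 was at 2.03, Skap1 at -1.73 and Calcoco2 at -1.51. Beside Hoxc, Smug1 was at 1.21, and beside Hoxd, Lnpk was at -0.14, Evx2 at -1.80 and Mtx2 at -1.98. Skap2, an adaptor protein gene at the anterior end of Hoxa, had signals of 4546 and 175 in KO and 7963 and 5167 in WT cells from secondary recipients, and 7494 and 10 in KO and 118 and 55 in WT cells from primary recipients. Like Hoxa5 it was high on replicate 1 of the KO primary group and low on the other 3 primary arrays.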

How the data were processed

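Cells were lysed after sorting, and cDNA made from mRNA was amplified by a global PCR and labelled with Cy3 (per the labels' protocols); amplification can widen gaps between arrays for scarce transcripts. Per the file headers, the arrays were read with Agilent Feature Extraction 10.5.1.1, and the deposited intensity used here is its background-corrected processed signal of each spot. The deposited value table, whose making the sources used here do not give, equals for each array the ratio of a spot's signal to the array's median, and was used as an alternative.

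Control spots and outlier spots, as the scanner software marked them, were dropped, repeated spots of a probe averaged, and log2 signal minus the array's 75th percentile was taken. The probe with the highest mean level stood for a gene. A gene was tested where 1 group or more had it well above background on each of its arrays. The test was run with limma 3.58.1 in R 4.3.3, in 1 fit of the 4 groups (4 residual degrees of freedom) and, over both genotypes or recipients, in an additive fit (5 degrees), with Benjamini-Hochberg adjustment over 22942 genes and a threshold of 0.05. The code was tested on simulated data. The number of arrays limits the precision.

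Values on every array are given for the Hox genes above background on at least 4 arrays and for the 3 of lowest p in each comparison, and pairs of probes are named where they disagree. Some items, among them 1 Hox gene that stays in the counts and fits, are not reported here. The members, the marker genes and the lists of cofactors, regulators and flanking genes were chosen with earlier results of these data known. Alternatives covered background correction, scaling, the filter on dim probes, the choice of probe, the deposited table, the WT slide, a replicate block and arrays left out.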

Additional observations from a re-analysis of the deposited data

How the results depend on the processing

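With 19 alternatives run, the number of Hox genes called was 0 in each comparison under each of them, with 1 exception. It was 1 for KO against WT cells in primary recipients without replicate 1 of WT cells (Hoxc10, log2 change -8.95, adjusted p = 0.0305 in limma), so that leaving out 1 array gave a range of 0 to 1; the remaining array of that group is the dim one. Hoxb6, at -1.67 for secondary against primary recipients, turned to 0.18 when a gene's probes were averaged, which adds its second probe of opposite sign. Hox genes with an unadjusted p under 0.05 in that comparison numbered 6 of 35, where 19.2% of all genes had one. They numbered 1 without both dim arrays (15.3% of all genes), 3 with each array centred on its median gene (17%; chosen after seeing the data), 17 after normexp background correction (32.6%) and 14 without replicate 1 of KO cells from primary recipients (23.1%), and the cause was not tested. Over all genes 0 were called in it, against 222 after quantile normalization, 368 with the 75th percentile over probes above background on all arrays, 89 without both dim arrays, 30 with probes averaged and 1 after normexp. The deviations of same-numbered arrays correlated at -0.03 to 0.01 in 5 pairs of groups and at 0.15 in the pair of primary groups, whose replicates 2 are the dim arrays, so the numbers were not taken as pairs. With a replicate block 0 Hox genes were called in each comparison, as without it. On the dim arrays a Hox gene not well above background has only an upper limit.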
